A study of Mus musculus with 16 samples.

Results

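The serotonin receptor genes Htr1a, Htr1b, Htr1d, Htr1f, Htr2a, Htr2c, Htr3a, Htr4, Htr6 and Htr7 were followed in neonatal mouse brain. They are 10 of 45616 genes and features on the array, found through the accession of each non-control probe, and 13 probes represent them. The family was chosen by measured values, namely the signals of Htr1d, which stood out in brains derived from irradiated sperm, and of Htr1f, which stood out in brains derived from heated sperm, so the group differences of these 2 genes are given as a description, with no p-value, and nothing is read from a count of calls that includes them. Total RNA of 16 whole brains of C57BL/6 mice at postnatal day 1 was hybridized to one-colour arrays, 1 array per brain. Of these, 4 brains came from freeze-dried sperm that had been kept for 1 h at 95 °C (called heated), 4 from freeze-dried spermatozoa given 5 Gy of X-rays (irradiated), 4 from freeze-dried spermatozoa with neither treatment (freeze-dried) and 4 from fresh spermatozoa (fresh). The sperm and not the neonates received the treatments, and freeze-drying is shared by 3 of the groups. The labels number each neonate without saying whether neonates share a litter, so p-values measure the spread between these animals only.

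Serotonin acts through receptors of several families. The Htr1 receptors couple to Gi/o proteins, which lower cyclic AMP and open potassium channels; Htr2 receptors couple to Gq proteins and phospholipase C; Htr4, Htr6 and Htr7 couple to Gs proteins and raise cyclic AMP; Htr3a encodes a subunit of a ligand-gated cation channel. In the brain the ligand comes from raphe neurons of the hindbrain, which already send fibres to the forebrain at birth.

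The sequences before the annotated starts of Htr1d and Htr1f are shown because the group differences described first are of these 2 genes. They are the 250 bases upstream of each start, 5′ to 3′, from RefSeq on the GRCm38.p6 build. Htr1d has 2 annotated starts, and the upstream stretches lie at chr4:136423274-136423523 (plus strand) and chr4:136424362-136424611 (plus strand). The stretch of Htr1f lies at chr16:65105785-65106034 (minus strand). Capitals mark matches, on either strand, to the CCAAT box (CCAAT) or the GC box (GGGCGG); the TATA box (TATAAA), the E-box (CACGTG), the AP-1 site (TGAGTCA) and the cyclic AMP response element (TGACGTCA) were also searched on both strands and do not occur in these 3 stretches.
Htr1d, first start: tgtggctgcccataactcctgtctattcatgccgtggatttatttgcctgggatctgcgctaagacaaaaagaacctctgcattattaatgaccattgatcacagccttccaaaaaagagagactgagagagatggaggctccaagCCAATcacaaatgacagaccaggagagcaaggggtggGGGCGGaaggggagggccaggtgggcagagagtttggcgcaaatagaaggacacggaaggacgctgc
Htr1d, second start: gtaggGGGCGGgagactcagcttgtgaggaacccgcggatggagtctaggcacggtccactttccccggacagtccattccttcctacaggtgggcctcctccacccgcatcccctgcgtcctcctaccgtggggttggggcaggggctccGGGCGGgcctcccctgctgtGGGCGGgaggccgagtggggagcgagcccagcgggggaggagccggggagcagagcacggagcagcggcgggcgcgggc
Htr1f: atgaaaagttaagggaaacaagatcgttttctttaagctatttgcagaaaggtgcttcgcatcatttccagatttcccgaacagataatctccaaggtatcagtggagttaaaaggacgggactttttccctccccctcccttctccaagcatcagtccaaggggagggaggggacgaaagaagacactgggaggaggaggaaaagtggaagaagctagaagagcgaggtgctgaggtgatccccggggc
CCAAT occurs in 33.8% and GGGCGG in 32.7% of all 32851 promoters of the same length in the table, TATAAA in 12.4%, CACGTG in 6.02%, TGAGTCA in 4.46% and TGACGTCA in 1.55%. The first Htr1d stretch holds 1 CCAAT and 1 GGGCGG, the second holds 3 GGGCGG, and the Htr1f stretch holds no match. The stretches also differ in base composition, with 51.6% and 72.4% GC before the 2 Htr1d starts and 49.2% GC before the Htr1f start, against a median of 52.4% over all promoters. A match describes these letters only.

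Each level is a log2 signal from which the 75th percentile of that array was subtracted, so a level of 0 equals the percentile. They compare arrays for 1 probe and not probes with each other. A probe was tested where it was well above background, by the scanner software's flag, on all 4 arrays of at least 1 group, and the brightest such probe stood for the gene. By this filter 11 of the 13 probes and 8 of the 10 receptor genes were tested, among 26477 genes and features. Htr1b, an inhibitory receptor found on serotonergic and other axon terminals, was well above background on 0 of 16 arrays. Htr6, a receptor that raises cyclic AMP, was well above background on 2 of 16 arrays, heated 4 and irradiated 3. There it read -5.48 and -5.61, and on the other arrays it has only a bound, as Htr1b has on all 16. Neither gene was tested. Of the 4 receptor genes outside the list, Htr5b was tested and Htr2b, Htr3b and Htr5a were not.

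Several arrays differ in ways that bear on every comparison. The arrays lie on 2 slides: slide 1 holds irradiated 1 and 2, all freeze-dried brains and fresh 1 and 2, and slide 2 holds all heated brains, irradiated 3 and 4 and fresh 3 and 4, so no slide holds both heated and freeze-dried brains. The Y-linked gene Ddx3y was high in 1 of 4 heated, 3 of 4 irradiated, 4 of 4 freeze-dried and 2 of 4 fresh brains. Hoxb5, a hindbrain and spinal cord gene, was below -4 in heated 2, heated 4, freeze-dried 2 and fresh 2, the cerebellar gene Pcp2 was at -3.11 and -4.29 in heated 2 and heated 4 against at least 0.249 elsewhere, and the pituitary gene Gh was high in heated 1, freeze-dried 1 and fresh 3. Skin keratins were high in freeze-dried 2 and skeletal muscle genes in fresh 1. All 7 pan-neuronal genes of the marker list were tested, and the mean of the list lay within -0.08 and 0.10 of its average on all arrays. In whole brains, fewer cells of a type and less RNA per cell cannot be told apart. The part of slide, sex and dissection in the results below was not tested beyond the values given beside them.

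Htr1d, which encodes an inhibitory Gi/o-coupled receptor, was highest in irradiated brains. Its levels were -4.90, -4.98, -4.86 and -4.90 in irradiated brains 1 to 4, -5.16, -4.89, -5.28 and -5.13 in heated brains, -5.64, -5.50, -5.26 and -5.39 in freeze-dried brains and -5.28, -5.40, -5.41 and -5.49 in fresh brains. The irradiated brains lay above every freeze-dried and every fresh brain, while the heated brains overlapped the irradiated and the freeze-dried ones and met the fresh ones, with heated 3 at -5.283 and fresh 1 at -5.284. Irradiated brains exceeded freeze-dried brains by 0.54 (SE 0.089), a fold of 1.45, and fresh brains by 0.49 (SE 0.089). Heated brains exceeded freeze-dried brains by 0.33 and fresh brains by 0.28 (SE 0.089 each), and the freeze-dried and fresh means differed by -0.05.

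The signal behind these values is dim. The Htr1d probe read between 24.49 and 46.98 intensity units over the 16 arrays, while the 75th percentile of the arrays lay between 1043 and 1412, and it was not well above background in heated 1 and fresh 3. Within slide 1 irradiated minus freeze-dried brains gave 0.51 (2 against 4 brains), and within slide 2 irradiated minus fresh brains gave 0.57 (2 against 2). With the slide as a block the irradiated minus freeze-dried difference was 0.55. Another background correction, normexp, reduced it to 0.29 and the irradiated minus fresh difference to 0.11. The probe is not among those of the authors' deposited value table used here.

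**Figure D1:**
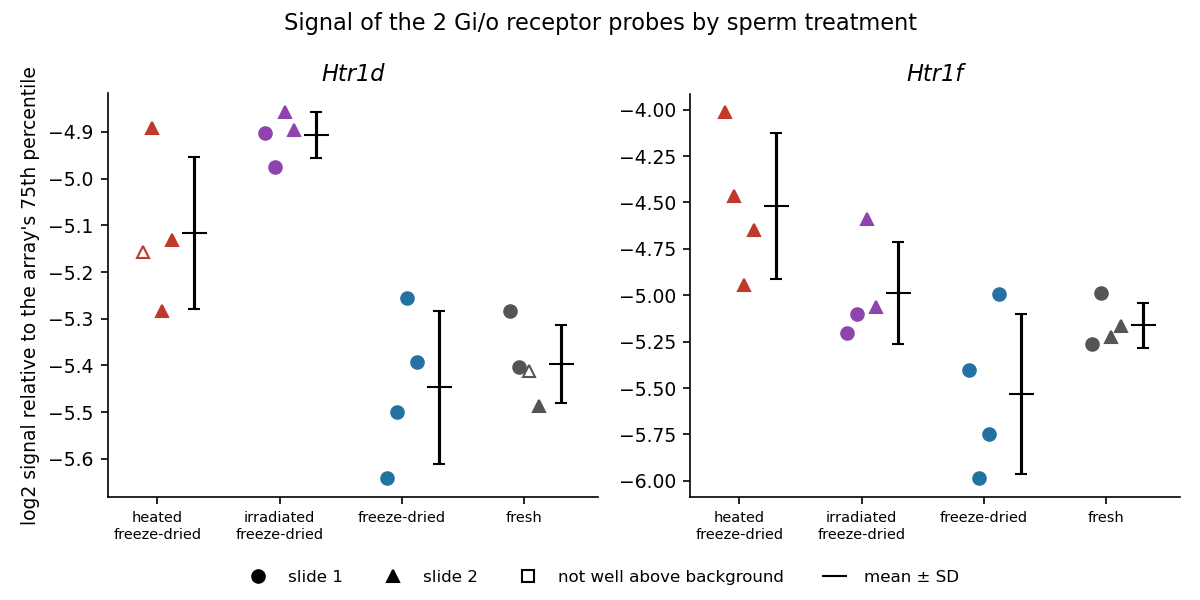
Log2 signal relative to the 75th percentile of the array for Htr1d and Htr1f in each of 16 brains, by group; circles are slide 1, triangles slide 2, open symbols arrays where the probe was not well above background, and bars the mean ± SD of 4 brains. The 4 irradiated brains lie between -4.98 and -4.86 for Htr1d, above all freeze-dried and fresh brains, and the 4 heated brains lie between -4.95 and -4.01 for Htr1f.

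Htr1f, which encodes another Gi/o-coupled receptor of the same family, was highest in heated brains. Its levels were -4.01, -4.46, -4.95 and -4.65 in heated brains, -5.20, -5.10, -4.59 and -5.06 in irradiated brains, -5.41, -5.99, -5.75 and -4.99 in freeze-dried brains and -5.26, -4.99, -5.23 and -5.17 in fresh brains. Every heated brain lay above every freeze-dried and every fresh brain, although heated 3 at -4.95 and freeze-dried 4 at -4.99 were close, and irradiated 3 reached the heated range. Heated brains exceeded freeze-dried brains by 1.01 (SE 0.216), a fold of 2.02, and fresh brains by 0.64. Irradiated brains exceeded freeze-dried brains by 0.54 with overlapping groups, and freeze-dried brains lay 0.37 below fresh ones (SE 0.216 each).

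The Htr1f probe was well above background on all 16 arrays, with signals of 21.79 to 76.03 intensity units. Its spread was wide in heated and freeze-dried brains, with SDs of 0.392 and 0.432, and narrow in fresh brains, with an SD of 0.121. Within slide 2, heated minus fresh brains gave 0.68 (4 against 2 brains) and heated minus irradiated brains 0.31. With the slide as a block, heated minus freeze-dried brains gave 0.89, with normexp 0.45 and with the values of the authors' deposited table it was 0.51. As a list, ciliary genes of the ependyma were also highest in heated brains. All 7 genes of that list were tested, and 6 passed in heated against freeze-dried brains, where 4.11% of all genes did (limma). The list was chosen with earlier results of these data known, so nothing is read from this count. With the slide as a block 0 of all genes passed. The list's summed signal, in multiples of the 75th percentile, spanned 3.90 to 4.91 in heated brains, 3.29 to 3.61 in irradiated, 2.59 to 3.26 in freeze-dried and 2.66 to 2.95 in fresh brains. The part of ciliary genes in the Htr1f difference was not tested.

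The genes most like each of these profiles were ranked by Pearson's r over the 16 arrays, which share the groups, slides and scaling. For Htr1d they were Nr1d1 (r = 0.86), Spock2 (0.84), Txnip (0.84), Slc16a6 (0.83) and Dipk1c (0.83). For Htr1f they were Epha6 (r = 0.86), Rnf6 (0.84), Ola1 (0.82), Crocc2 (0.82) and Fam163b (0.82). All 10 were well above background on 16 arrays, and Crocc2 belongs to the ciliary list above.

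The remaining tested receptors differed by at most 0.58 in the 6 comparisons. Htr1a encodes the inhibitory autoreceptor of raphe neurons, which is also found on forebrain neurons. Its levels were -3.69, -3.53, -3.66 and -3.48 in heated brains, -3.83, -3.90, -3.78 and -3.998 in irradiated, -4.13, -4.12, -3.73 and -3.87 in freeze-dried and -3.68, -3.70, -3.97 and -3.68 in fresh brains. The heated brains lay above every irradiated and every freeze-dried brain and overlapped the fresh ones. Heated minus freeze-dried brains gave 0.38 (SE 0.098) and heated minus irradiated brains 0.29 (SE 0.098), the second with an adjusted p of 0.185 from limma. Within slide 2 the heated minus irradiated difference was 0.30 (4 against 2 brains). Over the alternatives other than leaving 1 array out, heated minus freeze-dried brains spanned 0.23 to 0.48, with adjusted p from 0.0406 to 0.999 (limma). In the authors' deposited table the Htr1a means were 6.655 in heated and 6.424 in freeze-dried brains.

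The Gq-coupled receptors followed the slide as well as the group. Htr2c, which is abundant in choroid plexus and is also made by neurons, read 0.51, 0.20, 0.55 and 0.14 in heated brains, 0.01, 0.23, 0.26 and 0.40 in irradiated, 0.07, -0.14, 0.07 and -0.23 in freeze-dried and -0.20, -0.45, 0.18 and 0.02 in fresh brains. Every heated brain lay above every freeze-dried brain, by 0.41 on average (SE 0.138), but the difference was 0.09 with the slide as a block and 0.12 in the authors' deposited table. That table holds little slide difference (SD over probes 0.037, against 0.186 in the scanner values), so it is no separate check on the slide. The slides themselves differed within a group: irradiated brains on slide 2 exceeded those on slide 1 by 0.21 and fresh brains by 0.42. For Htr2a, the Gq-coupled receptor of cortical neurons, heated brains spanned -3.12 to -2.60, irradiated -3.41 to -2.89, freeze-dried -3.62 to -2.92 and fresh -3.75 to -3.12, and all groups overlapped. Its heated minus freeze-dried difference of 0.37 (SE 0.170) was 0.05 with the slide as a block.

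Htr3a, the channel subunit known from interneurons of the caudal ganglionic eminence, was the only one of the 8 with a lower mean in heated than in freeze-dried brains. It read -2.83, -2.35, -2.68 and -2.49 in heated brains, -2.49, -2.55, -2.56 and -2.62 in irradiated, -2.37, -2.12, -2.48 and -2.33 in freeze-dried and -2.36, -2.03, -2.41 and -2.32 in fresh brains. All irradiated brains lay below all freeze-dried and all fresh brains, the closest being irradiated 1 at -2.49 and freeze-dried 3 at -2.48, while the heated brains overlapped every other group. Irradiated minus fresh brains gave -0.28 (SE 0.108, adjusted p = 0.214 from limma) and heated minus fresh brains -0.31 (adjusted p = 0.143). The second Htr3a probe gave -0.31 and -0.50 in the same comparisons.

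Of the Gs-coupled receptors, Htr4 separated heated from irradiated brains on 1 of its 2 probes. The brighter probe read -2.83, -2.83, -2.78 and -3.14 in heated brains and -3.62, -3.32, -3.62 and -3.31 in irradiated brains, with freeze-dried brains between -3.36 and -3.00 and fresh brains between -3.30 and -3.03. Heated brains lay above irradiated ones without overlap, by 0.58 (SE 0.109, adjusted p = 0.024 from limma), and by 0.58 within slide 2 (4 against 2 brains). The irradiated brains also lay below every fresh brain, by 0.33 (adjusted p = 0.151). The other probe, which has the same accession, read -4.70 ± 0.455 in heated and -4.58 ± 0.281 in irradiated brains (SD, n = 4 each) and gave -0.12 (SE 0.224). The adjusted p for heated minus irradiated brains was 0.0637 with the slide as a block, 0.557 when both probes were averaged, 0.118 without the 4 arrays low in Hoxb5 and between 0.0198 and 0.0853 when 1 array was left out, above 0.05 without heated 1, 2 or 3 or irradiated 1, 2 or 3.

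Htr7, a Gs-coupled receptor with a role in circadian and thalamic circuits, read 1.21, 1.06, 1.21 and 1.15 in heated brains, 0.99, 1.04, 1.27 and 1.26 in irradiated, 0.87, 0.95, 1.11 and 0.85 in freeze-dried and 0.86, 0.74, 1.05 and 1.15 in fresh brains. All groups overlapped. Its slide 2 brains exceeded its slide 1 brains by 0.25 in the irradiated and 0.305 in the fresh group, and the heated minus freeze-dried difference of 0.21 (SE 0.096) was -0.065 with the slide as a block. The second Htr7 probe gave 0.00 for that comparison.

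**Figure D2:**
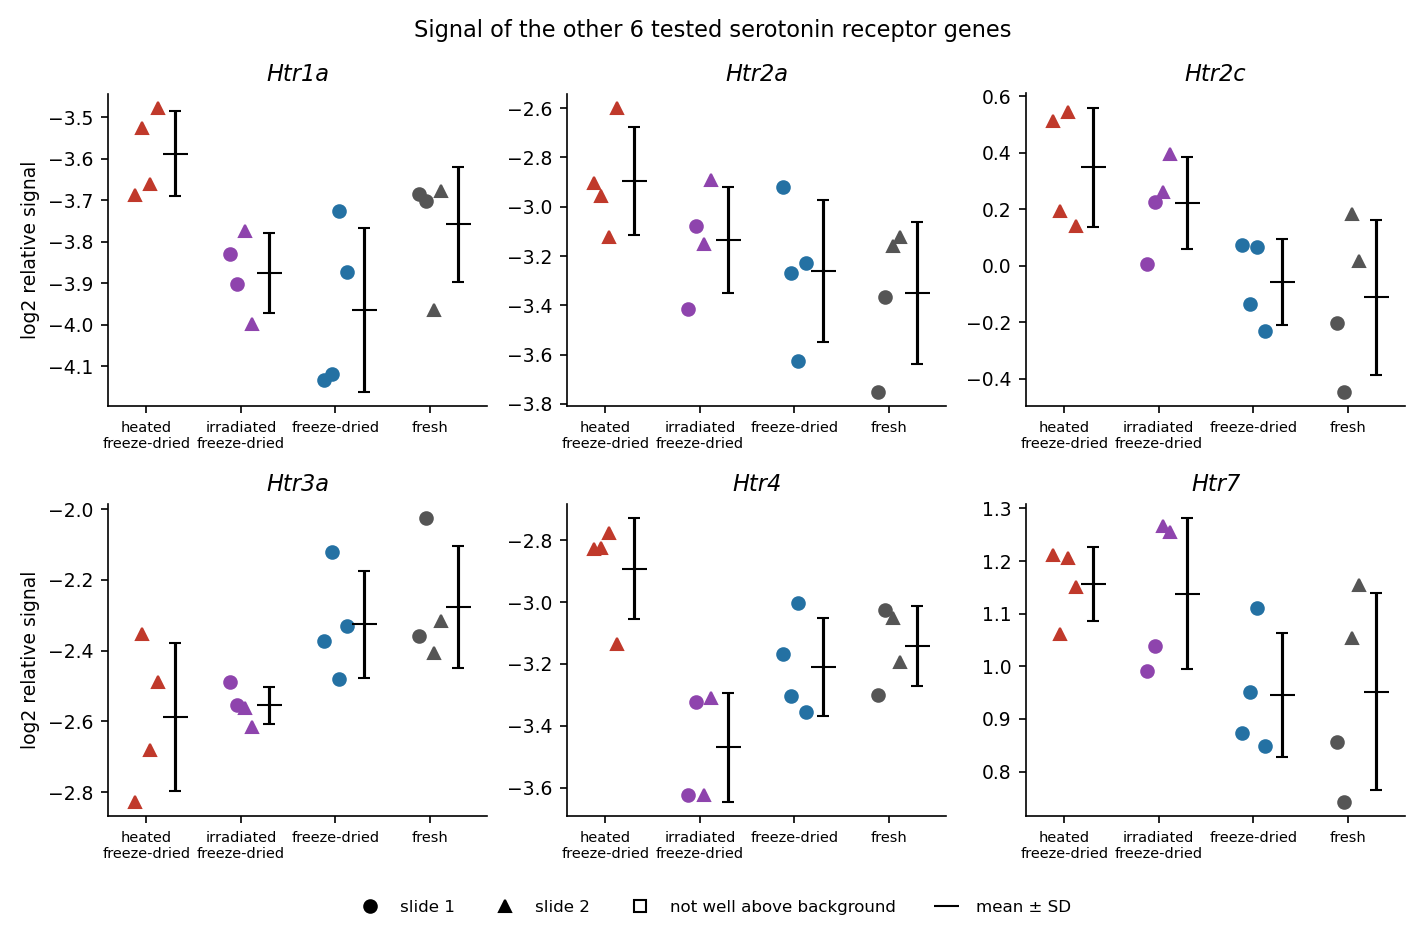
Log2 signal relative to the 75th percentile of the array for Htr1a, Htr2a, Htr2c, Htr3a, Htr4 and Htr7 in each of 16 brains; circles are slide 1, triangles slide 2, and bars the mean ± SD of 4 brains per group. Heated brains lie above all irradiated brains for Htr1a and Htr4, and slide 2 lies above slide 1 in the irradiated and fresh groups for Htr7 and on average for Htr2c.

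Set side by side, the orders of the group means differ between receptors, and most neighbours in each order overlap. Heated brains had the highest mean for Htr1a, Htr1f, Htr2a, Htr2c, Htr4 and Htr7, irradiated brains for Htr1d and fresh brains for Htr3a. Freeze-dried brains had the lowest mean for Htr1a, Htr1d, Htr1f and Htr7, fresh brains for Htr2a and Htr2c, heated brains for Htr3a and irradiated brains for Htr4.

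In heated against freeze-dried brains, 7 of the 8 tested receptors had a higher mean and 1 a lower one, with a median difference of 0.35 against 0.03 over all genes. At an adjusted p under 0.05, 2 of the 8 (Htr1a and Htr1f) passed, where 4.11% of all 26477 genes did, and 3 of the 8 (Htr1a, Htr1f and Htr2c) did not overlap between the groups, where 21% of all genes did not. The family was taken up with this comparison known, so nothing is read from these counts or from the median difference. With the slide as a block 0 receptors and 0 of all genes passed (limma), and the values of the authors' deposited table likewise gave 0 and 0. That table holds little slide difference, so it is no separate check on the slide. With Y-linked signal as a covariate 0 of the 8 passed. The count was also 0 without heated 1, heated 2, heated 4 or freeze-dried 2.

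In irradiated against freeze-dried brains 0 of the 8 passed and 0 of all genes did (0% of 26477, limma; 1918 genes at an unadjusted p under 0.05, 3 receptors among them). Htr1d was higher and Htr3a lower without overlap, where 4.78% of all genes did not overlap. This comparison too was known when the family was taken up, so nothing is read from its counts. In heated against fresh brains 0 of the 8 passed, where 2.9% of all genes did (limma). An unadjusted p under 0.05 was found for 7 of the 8 and for 4727 of all 26477 genes. Htr1d and Htr1f did not overlap there, where 11.3% of all genes did not. Both counts include Htr1d and Htr1f, whose values chose the family, so nothing is read from them. In irradiated against fresh brains 1 of the 8 was past the threshold, where 1.46% of all genes were. It is Htr1d, whose values chose the family, so nothing is read from it. The count was 0 with normexp, quantile normalization or no filter on dim probes, without the 4 arrays low in Hoxb5, and without irradiated 1, 2 or 3 or fresh 2. It was also 0 with a filter on all 16 arrays, where Htr1d was not tested, being well above background on 14. Of the others, Htr3a and Htr4 did not overlap there, and neither did Htr1d, where 9.13% of all genes did not. In heated against irradiated brains Htr4 passed, where 1.09% of all genes did, and Htr1a and Htr4 did not overlap, where 13.3% of all genes did not. These comparisons share arrays with one another.

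Between freeze-dried and fresh brains, 0 of the 6 receptors other than Htr1d and Htr1f passed the test. In freeze-dried against fresh brains 0 of the 8 passed, 0 had an unadjusted p under 0.05 and 0 were without overlap, where 0% of all genes passed (limma, 2575 at an unadjusted p under 0.05) and 4.16% did not overlap. The differences of the 6 receptors other than Htr1d and Htr1f spanned -0.21 to 0.09, with adjusted p between 0.519 and 0.991. The widest of their 95% intervals was that of Htr2a, from -0.28 to 0.46, and the interval of Htr7 ran from -0.21 to 0.20.

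**Figure D3:**
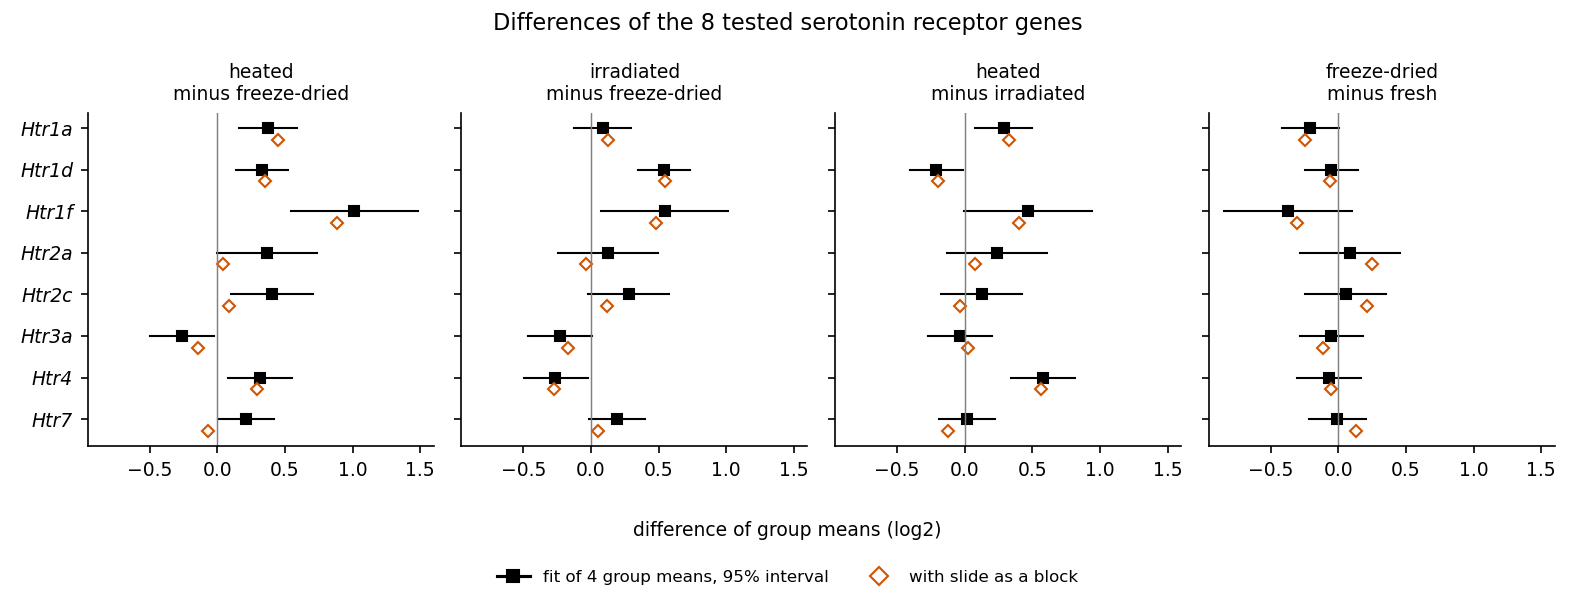
Difference of group means on the log2 scale for the 8 tested serotonin receptor genes in 4 comparisons; squares with bars are the fit of 4 group means with 95% intervals, and open diamonds the same difference with the slide as a block. The heated minus freeze-dried differences of Htr2a, Htr2c and Htr7 lie at 0.37, 0.41 and 0.21 without the block and at 0.05, 0.09 and -0.065 with it, while those of Htr1a and Htr1f lie at 0.38 and 1.01 without it and at 0.45 and 0.89 with it.

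Htr2c, Htr3a and Htr7 varied together from brain to brain. Among the 28 pairs of tested receptors, Htr2c and Htr3a were inversely related over 16 brains (r = -0.89, rho = -0.85; permutation test, p = 1e-05 and 8e-05, adjusted over 28 pairs 0.00014 and 0.0021), and 1e-05 is the smallest p that the 100000 resamples give. Htr2c and Htr7 rose together (r = 0.86, rho = 0.82; permutation test, p = 1e-05 and 0.00015, adjusted 0.00014 and 0.0021), and Htr3a and Htr7 were inversely related (r = -0.76, rho = -0.72; permutation test, p = 0.0005 and 0.00205, adjusted 0.00467 and 0.0191). No other pair had an adjusted p of r under 0.05. The permutation exchanged all 16 brains freely across groups and slides. Its p-values, here and for the marker lists below, therefore do not allow for either. Without the 2 brains farthest from the median of the first gene the 3 values of r were -0.82, 0.80 and -0.64. Within slide 1 they were -0.84, 0.81 and -0.72, within slide 2 -0.91, 0.52 and -0.67, and as deviations from the group means -0.78, 0.76 and -0.57. Brains high in Htr2c, such as heated 1 and heated 3, were low in Htr3a and high in Htr7, and fresh 2 had the lowest Htr2c and Htr7 and the highest Htr3a. Of these brains, fresh 2 was low in Hoxb5 (-8.05), while heated 1 and heated 3 were not (0.14 and 0.13). The part of dissection in these relations was not tested.

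Choroid plexus genes moved with Htr2c. All 9 genes of that list were tested, and their mean per brain was related to Htr2c over 16 brains (r = 0.76, rho = 0.79; permutation test, p = 0.00059 and 0.00048, adjusted over 136 pairs of a receptor and a marker list 0.0357 and 0.037). The value of r was 0.72 without the 2 brains farthest from the median of the list, 0.86 within slide 1 and 0.86 within slide 2. The list's summed signal, in multiples of the 75th percentile, spanned 44.4 to 56.2 in heated, 41.2 to 56.6 in irradiated, 40.7 to 55.5 in freeze-dried and 37.7 to 47.9 in fresh brains. Ttr, the gene of the list with the brightest signal, read between 4.68 and 5.31 on all arrays. Htr3a followed the mean of 7 cortical genes (r = 0.74, rho = 0.65; permutation test, p = 0.00105 and 0.00821, adjusted 0.0357 and 0.0744; 0.66 without the 2 farthest brains, 0.95 within slide 1 and 0.73 within slide 2). Htr7 followed 6 genes of caudal ganglionic eminence interneurons (r = 0.75, rho = 0.75; permutation test, p = 0.00089 and 0.00136, adjusted 0.0357 and 0.037), but with r = 0.78 within slide 1 it had r = 0.17 within slide 2, and r = 0.68 without the 2 farthest brains. Htr3a against the same interneuron genes gave r = -0.53 and rho = -0.55 (permutation test, p = 0.0362 and 0.0314, adjusted 0.149 and 0.143), and 4 of these 6 genes had a higher mean in heated than in freeze-dried brains, with a median difference of 0.13. The mean of the cortical genes, centred per gene, was highest in the arrays low in Hoxb5. It was 0.18 in heated 2, 0.16 in heated 4, 0.13 in freeze-dried 2 and 0.22 in fresh 2, and at most 0.036 elsewhere. The parts of tissue composition and dissection in the relations of the receptors to each other and to these lists were not tested.

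**Figure D4:**
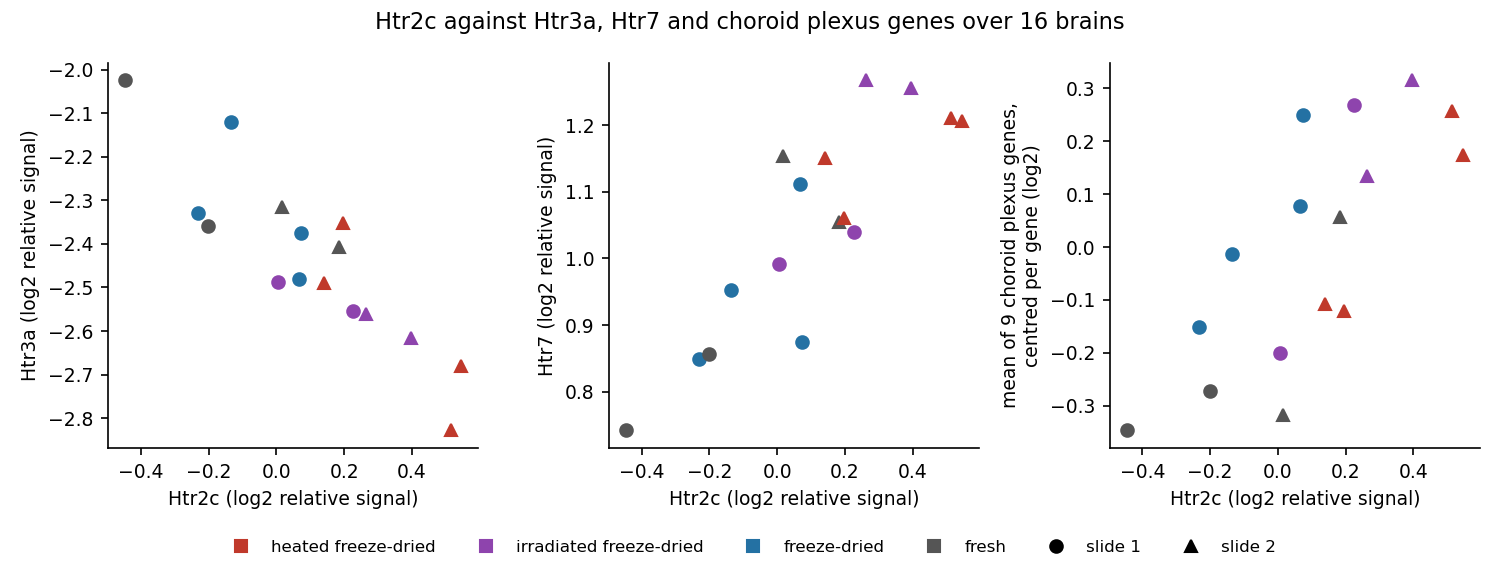
Level of Htr2c (log2 relative signal, horizontal) in 16 brains against the level of Htr3a, the level of Htr7 and the mean of 9 choroid plexus genes centred per gene; colours are groups, circles slide 1 and triangles slide 2. Htr3a falls as Htr2c rises (r = -0.89), while Htr7 (r = 0.86) and the choroid plexus genes (r = 0.76) rise with it.

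Beyond the receptors, 71 genes of serotonin biology were followed, of which 68 were tested. In heated against freeze-dried brains 12 passed, 9 higher and 3 lower, which is 17.6% of the 68 where 4.11% of all genes passed, 2.7% higher and 1.4% lower. The 4.11% is over all 26477 genes and features, 10484 of them without a symbol. The lists were chosen with earlier results of these data known. Nothing is therefore read from this share or from the counts of the single lists below. With the slide as a block 0 of the 68 passed, without the 4 arrays low in Hoxb5 0 passed, and with Y-linked signal as a covariate 1 passed. The count was 0 without freeze-dried 2, 1 without heated 2 or heated 4, and between 4 and 6 without heated 1, heated 3, freeze-dried 1 or freeze-dried 3. In irradiated against freeze-dried and in freeze-dried against fresh brains 0 of the 68 passed (limma), with 4 and 8 at an unadjusted p under 0.05.

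Genes that make, carry and break down serotonin showed no call between heated and freeze-dried brains, where 0 of 13 passed and 6 had a higher mean. Tph2, the enzyme of serotonin synthesis in neurons, and the serotonin transporter Slc6a4 are given outside the naming rule, having been chosen after their values were seen. Tph2 read -3.43 ± 0.929 in heated, -2.77 ± 0.108 in irradiated, -2.72 ± 0.107 in freeze-dried and -2.86 ± 0.119 in fresh brains (SD, n = 4 each), with a heated minus freeze-dried difference of -0.72 (adjusted p = 0.178 from limma). Its lowest heated value was -4.82, and the spread of the heated group was wider than that of the other groups. Slc6a4 differed by -0.27 (adjusted p = 0.382) in the same comparison. Of the brains compared, heated 2, heated 4 and freeze-dried 2 were below -4 in the hindbrain and spinal cord gene Hoxb5. The part of dissection in the Tph2 and Slc6a4 values was not tested. Maob, which breaks down monoamines, was higher in heated than in freeze-dried brains without overlap, by 0.34 (adjusted p = 0.0568 from limma). It rose by 0.42 in heated against fresh brains (SE 0.092, adjusted p = 0.0292). Without the arrays low in Hoxb5, 0 of all genes called in heated against fresh brains stayed called, Maob included.

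Of 8 transcription factors known from serotonergic neurons, 3 fell in heated against freeze-dried brains and 0 rose. Of all genes 1.4% fell and 2.7% rose there, and with the slide as a block 0 of those called passed (limma). Gata2 fell by 0.49 (SE 0.097, adjusted p = 0.0177 from limma), Insm1, a factor of newborn neurons and neuroendocrine cells, fell by 0.41 (SE 0.092, adjusted p = 0.0282), and the floor plate factor Foxa2 fell by 0.31 (SE 0.078, adjusted p = 0.0393). Foxa2 spanned -2.07 to -1.97 in heated and -1.73 to -1.65 in freeze-dried brains. These factors also act in other cell types, and Fev, chosen after its values were seen, which is restricted to serotonergic neurons in the brain, differed by -0.85 without passing (adjusted p = 0.171). In the same comparison 2 of 5 genes of dividing cells fell, Mki67 by 0.42 and Top2a by 0.29 (adjusted p = 0.0109 and 0.0429 from limma). The parts of cell division and of dissection in the values of these factors were not tested.

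Of the signalling genes downstream of the receptors, 9 of 12 in the Gi/o list, 7 of 9 in the Gq list and 10 of 14 in the Gs and cyclic AMP list had a higher mean in heated than in freeze-dried brains, as did 55.7% of all genes. At an adjusted p under 0.05, 2.7% of all genes rose and 1.4% fell in this comparison (limma). With the slide as a block 0 of the genes called passed. Of 9 Gq signalling genes 3 rose and 0 fell: the IP3 receptor Itpr1 by 0.24 (SE 0.054), the kinase Prkca by 0.31 (SE 0.074) and the G protein subunit Gnaq by 0.27 (SE 0.068), with adjusted p of 0.0264, 0.0331 and 0.045 from limma. Itpr1 read 1.90 to 1.97 in heated, 1.56 to 1.65 in irradiated, 1.64 to 1.83 in freeze-dried and 1.63 to 1.78 in fresh brains. It also rose against irradiated brains by 0.32 (adjusted p = 0.0149 from limma) and against fresh brains by 0.23 (adjusted p = 0.0379). Without the arrays low in Hoxb5, 0 of all genes called in heated against fresh brains stayed called. In heated against irradiated brains 2 of all genes called stayed called there. Of 14 Gs and cyclic AMP genes 3 rose and 0 fell: the adenylyl cyclases Adcy1 by 0.52 (SE 0.099, adjusted p = 0.0162) and Adcy2 by 0.33 (SE 0.074, adjusted p = 0.0266), and Gnal, the G protein subunit of striatal and olfactory neurons, by 0.47 (SE 0.097, adjusted p = 0.0208).

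Of 12 Gi/o signalling genes, through which Htr1d and Htr1f act, 1 rose in heated against freeze-dried brains, where 2.7% of all genes rose. This was the potassium channel Kcnj9, by 0.54 (SE 0.112, adjusted p = 0.021 from limma), with levels of -3.31 to -2.98 in heated and -3.83 to -3.52 in freeze-dried brains. With the slide as a block 0 of the genes called in this comparison passed. Of 11 partners and regulators 2 rose, the receptor kinase Grk2 by 0.23 (SE 0.057, adjusted p = 0.0425) and Adarb1, an RNA editing enzyme that acts on Htr2c transcripts, by 0.30 (SE 0.075, adjusted p = 0.0388).

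**Figure D5:**
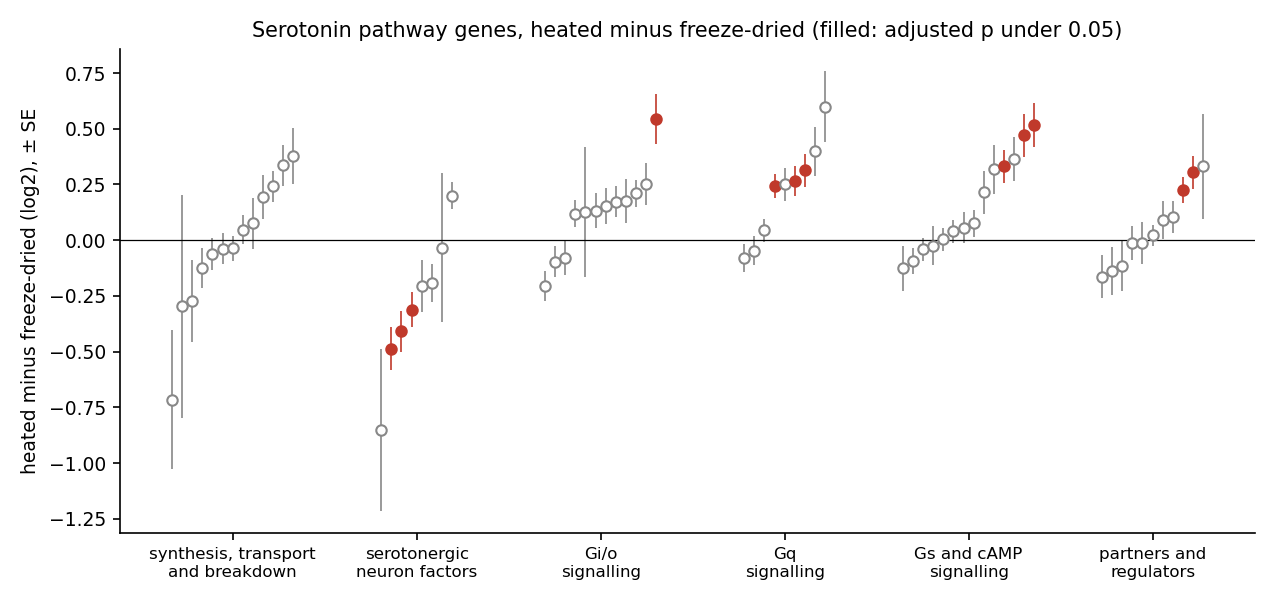
Heated minus freeze-dried difference (log2, ± SE) for 67 tested serotonin pathway genes in 6 lists, with Htr5b not drawn; each point is 1 gene, and filled points have an adjusted p under 0.05 in the fit without a slide term. The 9 filled points above 0 lie in the signalling and regulator lists and the 3 below 0 among the serotonergic neuron factors.

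Receptors for other amines, also coupled to G proteins, served as the family most like this one. Of 23 genes 22 were on the array and 16 were tested. In heated against freeze-dried brains 2 of the 16 rose, the histamine receptor Hrh1 by 0.66 (SE 0.113, adjusted p = 0.0109 from limma) and the muscarinic receptor Chrm1 by 0.47 (SE 0.108, adjusted p = 0.03), where 2.7% of all genes rose and, with the slide as a block, 0 of all genes passed. The median difference was 0.35 for the 8 serotonin receptors and 0.09 for these 16, in the fit without a slide term. The first includes Htr1d and Htr1f, whose values chose the family, so nothing is read from the 2 medians. Hrh1 read -1.60 to -1.50 in heated, -2.30 to -2.11 in irradiated, -2.42 to -2.05 in freeze-dried and -2.39 to -1.76 in fresh brains, with the heated brains above all others. In irradiated against freeze-dried brains 0 of the 16 passed. A difference between the families was not tested.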

How the data were processed

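RNA of 16 neonatal mouse brains was measured on one-colour arrays, 4 per group. Per the submitters' processing notes, the authors used Agilent Feature Extraction 11.0.1.1. Its files give, per spot, the intensity that the authors deposited (a processed signal after background subtraction, and raw medians) with flags and no scaling across arrays. The authors also deposited log2 values for 31313 probes, 7 receptors among them, as a value table; how it was made is not given in the sources used here. Its column medians were 9.341, 9.34, 9.344 and 9.341 for heated 1 to 4, 9.34, 9.344, 9.341 and 9.348 for irradiated 1 to 4, 9.335, 9.342, 9.342 and 9.344 for freeze-dried 1 to 4 and 9.337, 9.343, 9.336 and 9.339 for fresh 1 to 4. Within an array it followed the scanner values (r at least 0.9994 across probes, same direction, not centred per gene), but the SD over probes of the slide 2 minus slide 1 difference was 0.037 in the table and 0.186 in the scanner values, so it served as an alternative only. For heated against freeze-dried brains, which share no slide, it is not a check separate from the slide as a block.

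Control spots (3671 of 62976) and 2043 outlier spot values were left out, spots of 1 probe were averaged, and the log2 processed signal was taken minus the 75th percentile of each array. Between 59.9% and 66.1% of spots were well above background, and 0 were saturated; the number of arrays limits the precision. Probe accessions were matched to RefSeq symbols for 32994 of 56605 probes. All 16 arrays were fitted with 4 group means in limma 3.58.1 (R 4.3.3), two-sided, with Benjamini-Hochberg adjustment over 26477 genes; the fit was tested on simulated data. Correlations between receptors, and of receptors with marker lists, used two-sided permutation of all 16 brains, without regard to group or slide.

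The receptors, the gene lists and the tests were chosen with earlier results of these data known. The rule names the 10 receptors, Hoxb5, Pcp2, Gh, Ttr and Ddx3y; from each list up to 3 genes of smallest p in a comparison and all called where 5 or fewer were; and the 5 genes most like Htr1d and Htr1f. Of these, those that bear on the receptors are given. Alternatives were normexp on median spot and background signals (offset 50; the files used here have no mean signal column), quantile normalization, the deposited table, no filter and a filter on all 16 arrays, the mean over probes, slide, Y-linked signal or replicate number as a term, 2 groups only, and arrays left out. Alternatives for the last 3 comparisons were added after seeing the data. One marker list result is not reported here.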

Additional observations from a re-analysis of the deposited data

Results flagged for a closer look

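Within the groups of 4 brains, Dixon's test at 95% was applied to each of the 8 tested receptors, 32 groups in all, and 2 of the 32 held a brain far from the other 3; chance alone would mark about 1 in 20 groups. For Htr1a, fresh 3 read -3.97 while the other fresh brains lay between -3.70 and -3.68. For Htr4, heated 4 read -3.14 while the other heated brains lay between -2.83 and -2.78; heated 4 is also low in Hoxb5 and the only heated brain with Ddx3y signal, and without it the heated minus irradiated difference of Htr4 was 0.66 (adjusted p = 0.0198 from limma).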

How the results depend on the processing

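In heated against freeze-dried brains the calls depended on the setting. Against 1087 genes, 2 receptors and 12 pathway genes, the slide as a block left 0, 0 and 0, as did the deposited table, no filter on dim probes 654, 1 and 4, Y-linked signal as a covariate 152, 0 and 1, and leaving out the 4 arrays low in Hoxb5 12, 0 and 0. The 2 groups alone gave 2314 genes and 1 receptor, and quantile normalization 1 receptor. Leaving out 1 array gave 221 (without heated 2) to 1680 genes (without fresh 1), 0 to 3 receptors and 0 to 16 pathway genes. In irradiated against freeze-dried brains 0 to 3 genes passed with 1 array left out (3 without freeze-dried 4), and in freeze-dried against fresh brains 0 to 4, with 2 under the slide as a block; receptors and pathway genes stayed at 0 in both.

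Of the comparisons added after seeing the data, irradiated against fresh brains had 1 receptor called, Htr1d, and 0 with normexp, quantile normalization, no filter or without the arrays low in Hoxb5. The count was also 0 with the deposited table and with a filter on all 16 arrays, where Htr1d was not tested. Heated against irradiated brains had 1, Htr4, and 0 with the deposited table, no filter, the mean over probes, the slide as a block, Y-linked signal or without the arrays low in Hoxb5. With 1 array left out each gave 0 to 1, as did heated against fresh brains. Fewer arrays were fitted without the Hoxb5-low arrays, and without a filter more genes were tested; the cause was otherwise not tested.

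Same-numbered animals correlated between -0.387 and 0.383 in their deviations from the group means, and not every animal matched its own number best, so they share only a number. With the replicate block 1363 genes, 1 receptor and 16 pathway genes passed in heated against freeze-dried brains. Dim signals limit Htr1d and Htr1f, and Htr1b was well above background on 0 and Htr6 on 2 of 16 arrays.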
